A study of Mus musculus with 71 samples.

Results

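The core circadian clock of mammals is described here in mouse pro-B cells carrying Pax5 mutations and in early T-lineage cells, through 10 genes chosen by name: Arntl, Clock, Per1, Per2, Per3, Cry1, Cry2, Nr1d1, Nr1d2 and Dbp. All 10 had a row among the 25579 genes of the pro-B and progenitor data and among the 24420 genes of the lymphoid data. Pax5 is the transcription factor that commits lymphoid progenitors to the B cell lineage, and the study removed regions of it to find which ones B cell commitment and gene regulation require.

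RNA was measured by sequencing in 25 samples of sorted bone marrow cells, in 6 samples from mice bred for the Prd experiment, and in 17 samples of LMPP and thymocytes. Genotypes are written as in the labels, with D for a deletion and - for a null allele. The mice were C57BL/6. Pro-B cells were Pax5(+/+) (5 samples) or, with 2 samples each, lacked the octapeptide, Pax5(DOP/DOP), part of the homeodomain, Pax5(DHD/DHD), or both, Pax5(DOP,HD/DOP,HD). Others lacked 1 or both of the C-terminal regulatory domains CRD1 and CRD2, as homozygotes, Pax5(DCRD1/DCRD1), Pax5(DCRD2/DCRD2) and Pax5(DCRD1,2/DCRD1,2), or over a null allele, Pax5(DCRD1/-), Pax5(DCRD2/-) and Pax5(DCRD1,2/-). The 11th group held Pax5-deficient progenitors, Vav-Cre Pax5(fl/fl), in which a Cre driven by Vav regulatory sequences deletes floxed Pax5 in all haematopoietic cells from the stem cell on. In the Prd experiment every mouse carried Vav-Cre, and 2 samples each were Pax5(fl/+) pro-B cells, Pax5(Prd/fl) progenitors, whose remaining allele encodes the DNA-binding paired domain alone, and Pax5(fl/fl) progenitors. The wild-type lymphoid samples were LMPP (lymphoid-primed multipotent progenitors, 2), the thymic stages DN1, DN2a and DN2b (3 each) and DN3a and DN3b (2 each), and 2 further samples were Rag2(-/-) DN3a cells, which cannot rearrange antigen receptor genes.

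The cells of the CRD1,2 mutants, of Pax5(Prd/fl) and of Pax5(fl/fl) were sorted as Kit-expressing B220+ progenitors, the others through a separate pro-B gate, so that for these 4 kinds of mutant the sort gate and the genotype cannot be told apart in a comparison with cells of the pro-B gate. Progenitors of the Prd experiment, of both genotypes, are labelled with an alternative gating that the labels of the other progenitors lack. How it differs is not given in the labels. Pax5(DCRD1/-) and Pax5(DCRD1,2/-) cells were sorted from mice 3 to 5 weeks old, and mice of the 3 Prd genotypes were analysed by flow cytometry at 6 weeks. The time of day at which the mice were killed is not given in the sources used here. Most clock transcripts follow a daily rhythm in tissues, and the part of collection time in the levels below was not tested.

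Arntl (also called Bmal1) and Clock encode the 2 partners of a transcription factor that binds E-boxes. It activates the Per and Cry genes, whose proteins return to block it, and the genes of the nuclear receptors Nr1d1 and Nr1d2 (Rev-erb), which repress Arntl through ROR elements. Dbp, a further E-box target, is a PAR bZIP activator that acts on D-boxes, among them those of Per genes. The loop runs in nearly all cell types, lymphocytes included.

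The following promoter stretches hold letters that match motifs through which clock genes are known to regulate each other, with the match in capitals. They come from RefSeq's promoter table for GRCm38, written 5′ to 3′ on the strand of the gene, and 9 of the 10 genes had an entry. Positions count bases from the annotated start site.
Per1, chr11:69098763-69098808, strand +, E-box at -166: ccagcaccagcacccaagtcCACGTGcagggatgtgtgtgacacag
Cry1, chr10:85185089-85185153, strand -, E′-box at -79 and E-box at -60: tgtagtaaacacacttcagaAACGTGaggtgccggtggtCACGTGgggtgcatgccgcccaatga
Cry2, chr2:92434210-92434255, strand -, E′-box at -166: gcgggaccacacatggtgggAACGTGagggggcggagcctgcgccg
Nr1d1, chr11:98775380-98775425, strand -, E′-box at -28: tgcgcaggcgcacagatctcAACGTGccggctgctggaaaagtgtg
Per3, chr4:151044796-151044890, strand -, D-boxes at -205 and -158: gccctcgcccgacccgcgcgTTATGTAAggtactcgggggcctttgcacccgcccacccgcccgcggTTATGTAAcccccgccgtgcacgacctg
Arntl, chr7:113207532-113207557, strand +, ROR element core at 30 after the second annotated start, inside annotated exons: ggcagaaagTAGGTCAgggacggagg
The letters were searched on both strands of windows of 300 bases around each start, most of them before it. The E-box, CACGTG, stood in 7.15% of all 32851 windows of the table. The E′-box was found in 4.68% of windows and is spelled CACGTT on its other strand. The D-box, searched as TTATGTAA and as TTACGTAA, stood in 1.06% of windows. The core of the ROR element was found in 6.45%, and its letters are TAGGTCA, with a G allowed in the second place. None of these letters stood in the windows of Clock, Nr1d2 and Dbp, in that of the first Arntl start or in that of the second Per1 start. A match is a description of the sequence and was not tested as a binding site.

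Levels are given in TPM, a measure of transcript abundance corrected for gene length and sequencing depth. Sequencing depth lay between 10018678 and 43784791 reads, and over the 31 samples of pro-B cells and B220+ progenitors Arntl was supported by 263 to 11005 reads, Clock by 153 to 571 and Nr1d1, which had the fewest in any sample, by 111 to 837. All 10 B-lineage marker genes were expressed in every one of these groups, with summed levels of 15290 to 19560 TPM in Pax5(+/+) cells and 7116 to 7876 TPM in Pax5-deficient progenitors. Granulocyte markers summed to 699 to 6383 TPM in Pax5(+/+) cells and reached 15102 TPM in a Pax5(DCRD2/-) sample, and T-lineage markers rose over the stages from 189 to 200 TPM in LMPP to 19681 to 19853 TPM in DN3a. The part of other cells in the results was not tested, and in bulk samples fewer cells of a type and less RNA per cell cannot be told apart. The gene-level Pax5 mRNA was 1609 and 1697 TPM in the Pax5-deficient progenitors against 342 to 524 TPM in Pax5(+/+) cells, and so does not check the deletion. Pax5 is itself among the 10 B-lineage markers. The summed B-lineage levels, and the B-lineage counts in comparisons of Pax5 genotypes, therefore include the mRNA of the mutated gene.

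Arntl had the widest range of the 10 genes across Pax5 genotypes, falling from 235 ± 32.6 TPM (SD, n = 5) in wild-type Pax5(+/+) cells to about 21.1 TPM in Pax5-deficient progenitors. The gene (Entrez 11865) lies on chromosome 7 at 113207465-113314126 of GRCm38. Single values in Pax5(+/+) pro-B cells were 226, 279, 188, 242 and 239 TPM. The 3 genotypes with changes in the central domains lay among or close to them, at 274 and 261 TPM in Pax5(DOP/DOP), 242 and 230 TPM in Pax5(DHD/DHD), and 257 and 219 TPM in Pax5(DOP,HD/DOP,HD). Loss of CRD2 alone left similar levels, with 257 and 252 TPM in Pax5(DCRD2/DCRD2) and 246 and 196 TPM in Pax5(DCRD2/-), and neither genotype passed the test against Pax5(+/+).

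Arntl was lower wherever CRD1 was missing over a null allele or together with CRD2. Pax5(DCRD1/-) cells had 96.3 and 111 TPM, below all 5 Pax5(+/+) samples, a fall of 2.32-fold (log2 difference -1.22, SE 0.20, adjusted p = 0.00313, limma across all genes with Benjamini-Hochberg adjustment). Both groups came from the same pro-B gate, but markers of other cells differed here too. In Pax5(DCRD1/-) 4 of 10 macrophage, 2 of 4 tested erythroid and 1 of 10 B-lineage genes were lower. There 3 of 7 tested T-lineage genes were higher, of 8 progenitor genes 3 were higher and 1 lower, and 0 of 8 granulocyte genes passed. The part of these markers in the Arntl result was not tested. Of all genes tested in this comparison 8.51% were called, and Arntl was the 1 clock gene of 10 that was. With 2 copies of the allele, Pax5(DCRD1/DCRD1), the levels of 169 and 177 TPM again lay below every Pax5(+/+) sample, but the difference of -0.40 on the log2 scale (SE 0.15) did not pass (adjusted p = 0.143). The direct difference between the homozygous and the hemizygous CRD1 mutants was 0.81 on the log2 scale and did not pass either with limma (adjusted p = 0.409, with 0% of all genes called) or edgeR (adjusted p = 0.259), but did with DESeq2 (adjusted p = 0.0444); the 4 comparisons of such related genotypes were added after values had been seen.

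When both domains were missing, Arntl was lower again. It measured 46.1 and 41.8 TPM in Pax5(DCRD1,2/DCRD1,2) and 30.7 and 36.9 TPM in Pax5(DCRD1,2/-), with no overlap with the CRD1 mutants. Against Pax5(+/+) the fall was 5.47-fold in the homozygous cells (log2 difference -2.45, SE 0.17, adjusted p = 4.98e-07) and 7.12-fold in the hemizygous ones (-2.83, SE 0.20, adjusted p = 5.91e-06). Markers of other cells differed too: in Pax5(DCRD1,2/-) 6 of 10 macrophage genes were lower than in Pax5(+/+), beside 20.2% of all genes called. Summed macrophage levels were 166 to 173 TPM against 120 to 531 TPM. There 3 of 4 tested erythroid genes (median log2 difference -2.70) and 5 of 10 B-lineage genes (-0.60) were lower too, while 4 of 7 tested T-lineage genes were higher (1.04). Of 8 progenitor genes 2 were higher and 2 lower, and 0 of 8 granulocyte genes passed. Summed B-lineage levels were 13725 to 13966 TPM and summed T-lineage levels 454 to 520 TPM there, against 168 to 217 TPM for the T-lineage genes in Pax5(+/+), and Cd3e, Ptcra, Gata3 and Bcl11b were under 1 TPM in all samples of both. In Pax5(DCRD1,2/DCRD1,2) 3 of 10 macrophage, 3 of 4 erythroid and 5 of 10 B-lineage genes were lower, beside 24.6% of all genes called. Higher there were 1 of 10 B-lineage and 3 of 7 T-lineage genes. Of 8 progenitor genes 3 were higher and 2 lower, and 0 of 8 granulocyte genes passed. The part of these markers in the Arntl result was not tested. Set directly against the corresponding CRD1 mutants, it was 4.14-fold in homozygous (adjusted p = 0.000543) and 3.06-fold in hemizygous cells (adjusted p = 0.002), where 1.71% and 2.17% of all genes were called. These 2 steps did not differ detectably between the homozygous and the hemizygous pair: in the test of that difference 0 of the 10 clock genes passed, 0 at an unadjusted p under 0.05, and edgeR and DESeq2 called 0 too, where limma called 0.0294% of all genes.

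The Pax5-deficient progenitors had the lowest Arntl of the 25 samples, 18.6 and 23.6 TPM, a fall of 10.8-fold from Pax5(+/+) (log2 difference -3.44, SE 0.18, adjusted p = 2.49e-07). They lay below both Pax5(DCRD1,2/-) samples, but that step of -0.61 on the log2 scale did not pass (adjusted p = 0.32, with 2.02% of all genes called). In the order of group means, which are not adjusted for read length, from Pax5(DCRD2/-) downward each group was separated from the next in all of its samples: Pax5(DCRD2/-), Pax5(DCRD1/DCRD1), Pax5(DCRD1/-), Pax5(DCRD1,2/DCRD1,2), Pax5(DCRD1,2/-) and Pax5-deficient. From Pax5(DCRD2/DCRD2) through Pax5(+/+) to Pax5(DCRD2/-), neighbouring ranges overlapped. In Pax5-deficient progenitors 7 of 10 B-lineage genes were lower and 1 higher than in Pax5(+/+), and 4 of 10 macrophage genes lower and 1 higher. There 2 of 4 tested erythroid genes were lower and 4 of 7 tested T-lineage genes higher, beside 31.7% of all genes called. Of 8 progenitor genes 2 were higher and 1 lower, and 0 of 8 granulocyte genes passed. The part of these markers in the Arntl result was not tested.

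Clock, the partner of Arntl, did not follow it. Its level (Entrez 12753) was 2.56, 4.51, 5.51, 2.37 and 3.01 TPM in Pax5(+/+) cells, 2.38 and 1.95 TPM in Pax5(DCRD1,2/-) and 2.43 and 4.37 TPM in Pax5-deficient progenitors. All of the 31 samples lay between 1.29 and 5.51 TPM, and Clock was called in none of the 15 comparisons among Pax5 genotypes. Arntl was called in 8 of them.

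Of the Per genes, which encode the inhibitors that pair with Cry proteins, Per2 and Per3 were higher in the CRD1,2 mutants. Per2 measured 6.43, 5.25, 7.73, 3.81 and 4.14 TPM in Pax5(+/+) cells, against 7.89 and 8.81 TPM in Pax5(DCRD1,2/DCRD1,2) and 8.81 and 6.94 TPM in Pax5(DCRD1,2/-). Both Pax5(DCRD1,2/DCRD1,2) samples lay above all 5 Pax5(+/+) samples. In Pax5(DCRD1,2/-) 1 sample lay above all 5 and the other above 4 of the 5. With read length as a term in the model Per2 was higher by 2.08-fold (log2 difference 1.05, SE 0.25, adjusted p = 0.00838) and 1.95-fold (0.96, SE 0.23, adjusted p = 0.0142). Within wild type itself Per2 averaged 6.47 TPM in the 3 Pax5(+/+) samples read with 50 nucleotides and 3.97 TPM in the 2 read with 100. All reads were trimmed to 50 nucleotides before alignment, so read length may mark other differences between these samples, which was not tested. All CRD1,2 mutant samples were read with 100 nucleotides, and there they did not overlap with wild type. The read-length difference of Per2, -0.67 on the log2 scale, did not pass its own test (adjusted p = 0.129), nor did that of any member (0 of 10, 3 at an unadjusted p under 0.05), and 0.616% of all genes passed.

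Per3 was also higher in these genotypes. It was at 3.60, 3.42, 4.67, 2.41 and 2.56 TPM in Pax5(+/+) cells and above all of them at 4.98 and 4.79 TPM in Pax5(DCRD1,2/DCRD1,2), 5.48 and 5.35 TPM in Pax5(DCRD1,2/-) and 6.97 and 6.91 TPM in Pax5-deficient progenitors. The increases were 1.93-fold (log2 difference 0.95, SE 0.25, adjusted p = 0.0145), 2.13-fold (1.09, SE 0.25, adjusted p = 0.0104) and 1.78-fold (0.83, SE 0.23, adjusted p = 0.0165). Without the read-length term the Per2 and Per3 calls in both CRD1,2 genotypes were lost (adjusted p = 0.0576 to 0.133), and without Pax5(+/+) replicate 3 all 4 were lost as well (0.0511 to 0.0713). Each was also lost without 1 of the mutant samples, or for Per3 in Pax5(DCRD1,2/DCRD1,2) either of them. The Per3 call in Pax5-deficient progenitors was lost without either of their samples (0.0683 and 0.0605) or without Pax5(+/+) replicate 1 (0.0541), and with a replicate block in place of read length (0.0624). Per2 in Pax5-deficient progenitors, at 8.80 and 9.53 TPM, lay above every Pax5(+/+) sample and did not pass (log2 difference 0.51, adjusted p = 0.0924).

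Per1, a gene that also responds acutely to stimuli, had 24.99, 23.4, 32.6, 19.3 and 18.5 TPM in Pax5(+/+) cells and was not called in any comparison among these 25 samples. It measured 33.4 and 31.4 TPM in Pax5-deficient progenitors and 14.7 and 18.8 TPM in Pax5(DCRD1,2/-). The Cry genes, repressors of Arntl-Clock, were called in none of the 15 comparisons. Cry1 lay between 27.7 and 47.4 TPM in all 31 samples, and between 30.3 and 44.2 TPM in Pax5(+/+) cells. Cry2 was at 14.4, 14.1, 17.0, 13.7 and 12.9 TPM in Pax5(+/+) cells and above these at 20.7 and 19.97 TPM in Pax5-deficient progenitors, a log2 difference of 0.43 that missed the threshold (adjusted p = 0.0528).

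Neither Rev-erb gene passed in these comparisons. Nr1d1 had 18.7, 14.4, 16.9, 23.0 and 17.7 TPM in Pax5(+/+) cells, and its lowest hemizygous values were in Pax5(DCRD2/-), at 10.5 and 11.3 TPM (log2 difference -0.89, adjusted p = 0.192; DESeq2 called it). Nr1d2 had 3.96, 6.57, 6.73, 3.94 and 6.32 TPM in Pax5(+/+) cells and 9.86 and 9.004 TPM in Pax5(DCRD1,2/DCRD1,2) (log2 difference 0.90, adjusted p = 0.066). Dbp, at 16.7, 16.7, 17.9, 20.2 and 17.4 TPM in Pax5(+/+) cells, was higher in Pax5-deficient progenitors, at 28.0 and 24.6 TPM, without overlap (1.53-fold, log2 difference 0.62, SE 0.19, adjusted p = 0.0281). This call was lost with edgeR (adjusted p = 0.0536), with the replicate block (0.08) and without Pax5(+/+) replicate 1 or 5 or either Pax5-deficient sample (0.0584 to 0.166).

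Counted over the genotypes, the central-domain mutants gave 0 calls in 30 tests of clock genes, where 0.485% of all genes were called for Pax5(DOP/DOP), 0.639% for Pax5(DHD/DHD) and 1.22% for Pax5(DOP,HD/DOP,HD). At an unadjusted p under 0.05 there were 6, and edgeR and DESeq2 called 0. Loss of CRD2 alone gave 0 of 10 in both genotypes with limma, against 0.513% and 0.0956% of all genes in the hemizygous and homozygous cells. Pax5(DCRD1/DCRD1) also gave 0 of 10, against 8.16% of all genes. In Pax5(DCRD1,2/-) 2 clock genes were higher and 1 lower, against 20.2% of all genes called, in Pax5(DCRD1,2/DCRD1,2) 2 higher and 1 lower, against 24.6%, and in Pax5-deficient progenitors 2 higher and 1 lower, against 31.7%. The number of clock genes called in these 3 genotypes was thus near the share of all genes. In Pax5(DCRD1,2/DCRD1,2), edgeR and DESeq2 called 5 clock genes each. The median log2 difference over the 10 genes was 0.27 in Pax5(DCRD1,2/-), 0.26 in Pax5(DCRD1,2/DCRD1,2) and 0.35 in Pax5-deficient progenitors, beside medians over all genes of -0.04, 0.00 and 0.01. These comparisons share the Pax5(+/+) samples.

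**Figure D1:**
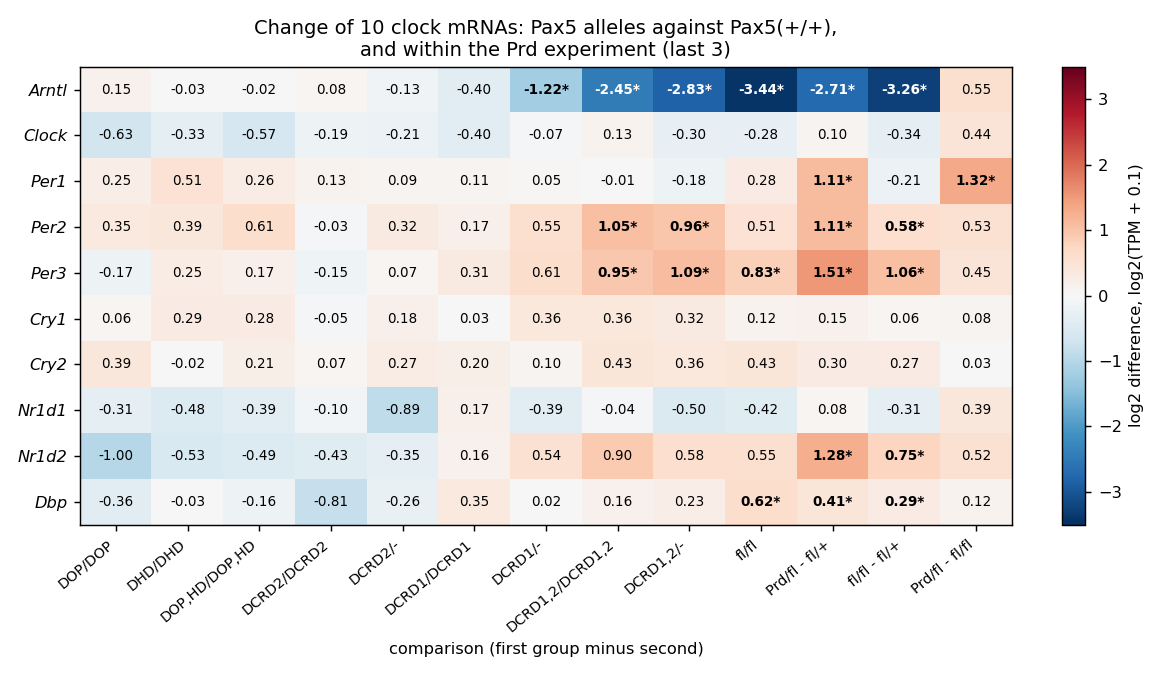
Log2 differences in TPM of the 10 clock genes (rows) in 13 comparisons of Pax5 genotypes (columns), coloured by direction and size; a star and bold type mark adjusted p under 0.05. The Arntl row holds the largest falls, down to -3.44, while the few called differences of Per1, Per2, Per3, Nr1d2 and Dbp are increases.

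The Prd experiment asks what the paired domain can do without the rest of Pax5. Arntl was at 198 and 174 TPM in Pax5(fl/+) pro-B cells, 25.9 and 30.8 TPM in Pax5(Prd/fl) progenitors and 16.3 and 22.8 TPM in Pax5(fl/fl) progenitors. It fell 6.55-fold in Pax5(Prd/fl) (log2 difference -2.71, SE 0.18, adjusted p = 0.000105) and 9.59-fold in Pax5(fl/fl) (-3.26, SE 0.18, adjusted p = 6.24e-05). Between the 2 kinds of progenitor, which share a gate, the difference of 0.55 did not pass (adjusted p = 0.178). Against Pax5(fl/+), 7 of 10 B-lineage genes were lower and 2 higher in Pax5(fl/fl), and 7 lower and 1 higher in Pax5(Prd/fl). Of 8 granulocyte genes 7 were higher in Pax5(fl/fl) and 1 in Pax5(Prd/fl), beside 39.9% and 40.7% of all genes called. Of 5 tested T-lineage genes 4 were higher and 0 lower in each. Of 8 progenitor genes 4 were higher and 1 lower in Pax5(fl/fl), and 4 higher and 3 lower in Pax5(Prd/fl). Of 9 tested macrophage genes 1 was higher and 2 lower in Pax5(fl/fl), and 1 higher and 3 lower in Pax5(Prd/fl). In both, 0 of 4 tested erythroid genes passed. The part of these markers in the Arntl result was not tested.

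Per1 separated Pax5(Prd/fl) cells from both other genotypes. It measured 64.9 and 67.8 TPM in them, 26.2 and 26.8 TPM in Pax5(fl/fl) progenitors and 30.2 and 31.3 TPM in Pax5(fl/+) pro-B cells. Against Pax5(fl/fl) it was 2.50-fold higher (log2 difference 1.32, SE 0.08, adjusted p = 0.00356), the 1 clock gene of 10 called where 1.97% of all genes were. Against Pax5(fl/+) it was 2.16-fold higher (1.11, SE 0.08, adjusted p = 0.000183). The call against Pax5(fl/fl) was lost without either Pax5(fl/fl) sample (adjusted p = 0.0963 and 0.0777) or without Pax5(fl/+) replicate 2 (0.0602).

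Some genes of acute responses also differed between Pax5(Prd/fl) and Pax5(fl/fl) cells. Of 18 tested immediate-early genes, a class switched on within minutes of a stimulus, 5 were higher and 0 lower in Pax5(Prd/fl) than in Pax5(fl/fl) cells, with a median log2 difference of 0.49 beside 0.07 over all genes. Fos was at 47.9 to 51.0 TPM against 1.64 to 1.68 TPM (log2 difference 4.81, adjusted p = 8.1e-05), and Fosb at 2.55 to 3.16 TPM against 0.142 to 0.146 TPM (adjusted p = 0.0123). Of 11 tested genes induced by glucocorticoids, 4 were higher and 0 lower (median 0.80). This list contains Per1, which counts among these 4 and in the median. Ddit4, a stress-induced inhibitor of mTOR signalling, led the list, at 245 to 283 TPM against 34.0 to 51.8 TPM (adjusted p = 0.00622). Next came Tsc22d3 (Gilz), at 353 to 404 TPM against 95.7 to 129 TPM (adjusted p = 0.0114). Against Pax5(fl/+) cells the counts were 7 higher and 5 lower of 18 immediate-early genes led by Egr3, which was lower (log2 difference -3.01, adjusted p = 0.00634), and Jun, which was higher (2.18, adjusted p = 5.9e-05). Of the 11 glucocorticoid-induced genes 5 were higher and 3 lower, led by Tsc22d3 (2.21, adjusted p = 0.000244) and Klf9 (2.08, adjusted p = 0.00729). The part of such a response in the Per1 level was not tested.

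Per2, Per3 and Nr1d2 formed a gradient in the Prd experiment, lowest in pro-B cells and highest in Pax5(Prd/fl). Per2 was at 5.98 and 5.75 TPM in Pax5(fl/+), 8.58 and 9.05 TPM in Pax5(fl/fl) and 14.0 and 11.6 TPM in Pax5(Prd/fl). It was 2.16-fold higher in Pax5(Prd/fl) (log2 difference 1.11, adjusted p = 0.00173) and 1.49-fold higher in Pax5(fl/fl) (0.58, adjusted p = 0.0215) than in Pax5(fl/+). Per3 had 3.70 and 3.71 TPM in Pax5(fl/+), 7.10 and 8.67 TPM in Pax5(fl/fl) and 12.3 and 9.39 TPM in Pax5(Prd/fl), increases of 2.09-fold (1.06, adjusted p = 0.00582) and 2.85-fold (1.51, adjusted p = 0.00142). In all 3 genotypes the samples of each of these genes lay apart. The calls between Pax5(fl/fl) and Pax5(fl/+) were lost without either Pax5(fl/+) sample, for Per2 (adjusted p = 0.116 and 0.143) and for Per3 (0.0516 and 0.0567), and for Per2 also without either Pax5(fl/fl) sample (0.0788 and 0.0952).

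Nr1d2 rose from 4.27 and 3.74 TPM in Pax5(fl/+) to 6.02 and 7.67 TPM in Pax5(fl/fl) (1.69-fold, adjusted p = 0.0162) and 9.55 and 10.1 TPM in Pax5(Prd/fl) (2.42-fold, adjusted p = 0.00205). Dbp rose less, from 21.7 and 21.3 TPM to 26.6 and 26.04 TPM (1.22-fold, adjusted p = 0.0416) and 28.2 and 29.1 TPM (1.33-fold, adjusted p = 0.0119). The Nr1d2 call in Pax5(fl/fl) was lost without either Pax5(fl/+) sample or without Pax5(fl/fl) replicate 2 (adjusted p = 0.0722 to 0.13), and the Dbp call without any 1 of these 4 samples (0.0973 to 0.21) and with edgeR (0.0714), DESeq2 (0.113) and a replicate block (0.077). The Dbp call in Pax5(Prd/fl) was lost without either Pax5(fl/+) sample (0.0916 and 0.103) and with DESeq2 (0.0579). In the direct comparison of the progenitors, Per2, Per3, Nr1d2 and Dbp did not pass, with adjusted p = 0.14 for Per2 and 0.19 for Nr1d2. Cry1, Cry2, Nr1d1 and Clock were called in no comparison of the experiment. In all, 5 clock genes were higher and 1 lower in Pax5(Prd/fl) than in Pax5(fl/+), beside 40.7% of all genes called, and 4 were higher and 1 lower in Pax5(fl/fl), beside 39.9%. Without Pax5(fl/+) replicate 1 or 2 the 12 calls of the 3 comparisons became 7 and 6.

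**Figure D2:**
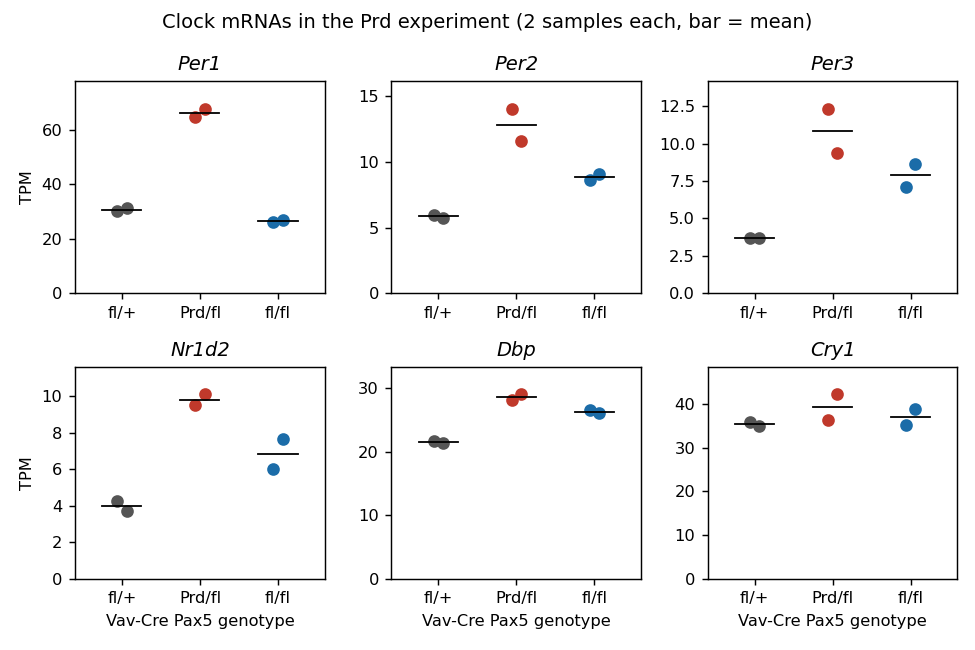
Levels in TPM of Per1, Per2, Per3, Nr1d2, Dbp and Cry1 in the 2 samples of each genotype of the Prd experiment, with points for samples and bars for means. Per1 stands at 64.9 and 67.8 TPM in Pax5(Prd/fl) only, Per2, Per3 and Nr1d2 step up from Pax5(fl/+) over Pax5(fl/fl) to Pax5(Prd/fl), and Cry1 lies between 35.0 and 42.2 TPM in all 6 samples.

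Along the T lineage Arntl was called in 3 of 6 comparisons, as were Clock and Per3, while Per1, Cry2 and Dbp were called in 4, Per2 and Nr1d1 in 2 and Nr1d2 in 1. Cry1 lay between 22.1 and 43.4 TPM in the 17 samples and was called in 0. These values are means of the 2 TPM values deposited per gene, were normalized apart from the pro-B data and are not compared with them by a test; their depth is unknown. Arntl was at 7.21 and 10.6 TPM in LMPP, 5.03, 5.32 and 5.92 TPM in DN1, 8.23, 9.89 and 8.32 TPM in DN2a, 7.53, 8.93 and 8.28 TPM in DN2b, 12.996 and 15.2 TPM in DN3a and 9.98 and 13.2 TPM in DN3b. It was lowest in DN1, which lay apart from all other stages, and the differences of -0.68 from LMPP to DN1 (adjusted p = 0.0195), 0.69 from DN1 to DN2a (adjusted p = 0.00734) and 0.77 from DN2b to DN3a (adjusted p = 0.00475) on the log2 scale passed. The first of these calls was lost without LMPP replicate 2 (adjusted p = 0.23) or without either of the 2 DN1 samples numbered 2 (0.0658 and 0.0508), and the last without DN3a replicate 2 (0.0601).

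At the step from LMPP to DN1, Per3 fell from 13.6 and 14.6 TPM to 6.31, 5.61 and 5.76 TPM (2.37-fold, log2 difference -1.25, SE 0.27, adjusted p = 0.00417). Clock fell from 3.18 and 2.72 TPM to 1.52, 1.14 and 1.53 TPM (2.04-fold, adjusted p = 0.0309). Dbp was the 1 member higher in DN1, at 37.4, 43.1 and 39.6 TPM against 25.2 and 30.8 TPM (1.43-fold, adjusted p = 0.0194). The Clock call was lost without any 1 of these 5 samples (adjusted p = 0.0533 to 0.203), and the Dbp call without LMPP replicate 1 (0.232) or 1 of the DN1 samples numbered 2 (0.0692). In all 1 member was higher and 3 lower, where 18.6% of all genes were called. After scaling by the median ratio Cry1 passed too (log2 difference 0.37, adjusted p = 0.0282), so that 2 were higher and 3 lower.

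From DN1 to DN2a most of the clock genes fell: 6 of 10 were lower and 1, Arntl, higher, where 33.7% of all genes were called and 22.9% were lower. The median log2 difference was -0.79 over the 10 genes and -0.18 over all genes. Nr1d1 fell from 23.3, 23.9 and 22.4 TPM to 9.68, 14.2 and 10.2 TPM (2.06-fold, log2 difference -1.05, SE 0.17, adjusted p = 0.000583). Dbp fell to 22.1, 22.7 and 17.9 TPM (1.92-fold, -0.94, SE 0.13, adjusted p = 0.000105), and Cry2 from 20.2, 21.3 and 20.9 TPM to 11.7, 17.0 and 13.4 TPM (1.49-fold, adjusted p = 0.00862). All 3 genes lay apart between the stages.

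The Per genes fell together with them at this step. Per1 went from 36.0, 37.4 and 41.3 TPM to 19.9, 30.2 and 13.9 TPM (1.88-fold, adjusted p = 0.00991). Per3 went to 2.94, 4.48 and 2.32 TPM (1.85-fold, adjusted p = 0.0123), and Per2 from 9.97, 8.13 and 11.2 TPM to 4.67, 8.46 and 3.50 TPM (1.85-fold, adjusted p = 0.0408), where one DN2a sample overlapped DN1. The Per3 call was lost without 1 of the DN2a samples numbered 1 (adjusted p = 0.064). The Per2 call was lost under 13 of 25 alternative settings (adjusted p up to 0.187). Of the immediate-early genes 0 were higher and 9 lower of 19 at this step, led by the nuclear receptor gene Nr4a1, from 29.1 to 32.0 TPM down to 3.54 to 7.05 TPM, and Zfp36, from 45.9 to 53.0 TPM down to 9.83 to 14.2 TPM. Of 12 glucocorticoid-induced genes 3 were higher, among them Cdkn1a (log2 difference 2.57) and Il7r (2.23), and 4 lower. The part of these responses in the Per1 level was not tested at any stage. From DN2a to DN2b, 0 of 10 clock genes passed (1 at an unadjusted p under 0.05), while 18.2% of all genes were called.

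DN3a cells, in which rearrangement of the T cell receptor beta gene takes place, had higher levels of 7 clock genes than DN2b cells and lower levels of 0. Here 45.8% of all genes were called and 31.4% were higher, and the medians were 0.91 over the clock genes and 0.27 over all genes; after scaling of the samples by their median ratio, 6 were higher. Clock rose from 1.41, 1.03 and 0.827 TPM to 4.79 and 4.43 TPM (4.04-fold, log2 difference 2.02, SE 0.31, adjusted p = 0.000174). Nr1d1 rose from 7.76, 10.6 and 9.04 TPM to 26.9 and 23.6 TPM (2.76-fold, adjusted p = 5.57e-05), and Nr1d2 from 2.85, 2.79 and 4.37 TPM to 8.16 and 8.98 TPM (2.57-fold, adjusted p = 0.00382). None of these ranges overlapped.

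Dbp rose from 20.6, 19.0 and 23.0 TPM to 48.1 and 45.8 TPM (2.25-fold, adjusted p = 2.46e-05). Per1 rose from 24.8, 33.3 and 19.8 TPM to 51.1 and 54.0 TPM (2.07-fold, adjusted p = 0.00546), without overlap. Cry2 rose to 26.1 and 20.9 TPM from 17.0, 17.5 and 14.1 TPM (1.44-fold, adjusted p = 0.017), and this call was lost with the scaling (adjusted p = 0.127), without DN3a replicate 1 (0.173) and without 1 of the DN2b samples numbered 2 (0.061). Per2 and Per3 stayed at 2.96 to 3.67 TPM and 2.27 to 3.02 TPM in DN3a and were not called, so the 3 Per genes differed in what passed at this step, which was not itself tested. Of the immediate-early genes 10 were higher and 2 lower of 19, led by Egr1 (log2 difference 5.16) and Egr3 (4.37), and of 12 glucocorticoid-induced genes 8 were higher, among them Errfi1 (2.53), and 1, Zbtb16, lower (-4.39). The 2 DN3a samples differed widely in some immediate-early genes, with Fos at 0.492 and 92.0 TPM and Jun at 56.8 and 409 TPM. Egr1 and Nr4a1 differed less between them, as their wild-type DN3a ranges further below show.

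In DN3b, the stage after beta-selection, 5 clock genes were lower than in DN3a and 0 higher, where 53.4% of all genes were called and 39.2% were lower. Dbp fell to 12.01 and 10.2 TPM (4.22-fold, log2 difference -2.08, SE 0.16, adjusted p = 1.78e-07) and Clock to 0.868 and 1.25 TPM (4.11-fold, -2.04, SE 0.34, adjusted p = 0.000191). Per3 fell from 2.27 and 3.02 TPM to 1.10 and 0.977 TPM (2.39-fold, adjusted p = 0.00242), Per1 to 24.3 and 24.9 TPM (2.13-fold, adjusted p = 0.00554) and Cry2 to 12.1 and 11.6 TPM (1.96-fold, adjusted p = 0.000445). Arntl, Cry1, Per2, Nr1d1 and Nr1d2 were not called; Nr1d1 had 19.9 and 16.6 TPM, Nr1d2 5.06 and 4.64 TPM and Per2 4.23 and 4.70 TPM in DN3b. The medians were -0.89 over the clock genes and -0.41 over all genes. Of the immediate-early genes 0 were higher and 10 lower of 19, with the largest differences in Fos (log2 difference -4.89, adjusted p = 0.067) and Fosb (-4.56, adjusted p = 0.0558), which did not pass. Of the 12 glucocorticoid-induced genes 0 were higher and 8 lower, led by Cdkn1a (-3.27) and Tsc22d3 (-2.45).

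Per2 was the member that set Rag2(-/-) DN3a cells apart from wild-type DN3a cells. It was at 0.340 and 0.547 TPM in them, against 3.67 and 2.96 TPM, a fall of 6.37-fold (log2 difference -2.67, SE 0.38, adjusted p = 0.000355). In no other of the 17 lymphoid samples was it below 2.31 TPM. Per1, at 25.7 and 30.96 TPM, and Cry2, at 14.2 and 16.3 TPM, were also lower (1.86-fold, adjusted p = 0.0347, and 1.53-fold, adjusted p = 0.0218), and the Per1 call was lost without any 1 of these 4 samples (adjusted p = 0.0769 to 0.184), the Cry2 call without DN3a replicate 1 (0.172) or Rag2(-/-) replicate 1 (0.138). Dbp had its highest level of the 17 lymphoid samples here, 60.5 and 64.4 TPM, without passing against DN3a (adjusted p = 0.067). In all 3 members were lower and 0 higher, beside 26.4% of all genes called and 19.5% lower. After scaling of the samples by their median ratio Dbp passed (log2 difference 0.61, adjusted p = 0.0135), so that 1 was higher and 3 lower. Of the immediate-early genes 7 were lower and 1 higher of 19, led by Nr4a1, at 0 to 0.124 TPM against 27.0 to 42.3 TPM, and Egr1, at 0.547 to 0.997 TPM against 31.9 to 48.3 TPM. Of the 12 glucocorticoid-induced genes 4 were higher, led by Tgm2 (log2 difference 1.94) and Ddit4 (1.07), and 1, Per1, lower. Markers of other cells differed here too. Of 8 tested macrophage genes 5 were higher and 0 lower (median log2 difference 2.49), with summed levels of 81.2 to 140 TPM against 56.4 to 62.9 TPM. Of 3 tested erythroid genes 1 was higher, and of 8 B-lineage genes 1 was higher and 2 lower. Of 8 progenitor genes 1 was higher and 3 lower, 2 of 10 T-lineage genes were lower, and 0 of 7 granulocyte genes passed. The part of these markers in the clock results was not tested. The Rag2 mRNA itself was still counted in the Rag2(-/-) cells and does not check the genotype.

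A further 28 genes belong to a list of accessory clock factors. In the hemizygous and Pax5-deficient model the largest difference was that of Nfil3, a repressor of D-box genes, at 11.5 to 15.2 TPM in Pax5-deficient progenitors against 0.914 to 3.48 TPM in Pax5(+/+) (log2 difference 2.65, adjusted p = 0.00533). It was followed by the E-box repressor Bhlhe40 (Dec1), at 0.957 to 2.37 TPM in Pax5(+/+) but 0.0950 to 0.235 TPM in Pax5(DCRD1/-) (-2.64, adjusted p = 0.0168) and 0.110 to 0.251 TPM in Pax5(DCRD1,2/-) (-2.55, adjusted p = 0.0102). In Pax5-deficient progenitors Bhlhe40 had 1.59 to 1.79 TPM, within the range of Pax5(+/+). Of 21 listed genes tested, 0 were higher and 1 lower in Pax5(DCRD1/-), 2 higher and 3 lower in Pax5(DCRD1,2/-) and 2 higher and 1 lower in Pax5-deficient progenitors, where 8.51%, 20.2% and 31.7% of all genes were called.

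In Pax5(DCRD1,2/DCRD1,2) the count was 1 higher and 3 lower of 21, beside 24.6% of all genes called, with Bhlhe40 again lower, at 0.0513 to 0.410 TPM (log2 difference -2.52, adjusted p = 0.0119), the deubiquitinase Usp2 lower, at 2.62 to 2.84 TPM against 4.61 to 5.97 TPM (adjusted p = 0.0205), and Tipin, the partner of Timeless, higher, at 139 to 149 TPM against 91.3 to 128 TPM (adjusted p = 0.0258). In the Prd experiment Nfil3 was at 1.30 to 1.86 TPM in Pax5(fl/+), 5.00 to 5.93 TPM in Pax5(Prd/fl) (log2 difference 1.74, adjusted p = 0.00155) and 7.38 to 7.72 TPM in Pax5(fl/fl) (2.20, adjusted p = 0.000632). Ciart, a repressor of Arntl-Clock, was lower in Pax5(fl/fl), at 2.35 to 3.12 TPM against 5.27 to 6.36 TPM in Pax5(fl/+) (adjusted p = 0.0234). There 5 of 19 genes were higher and 2 lower in Pax5(Prd/fl), and 5 higher and 4 lower in Pax5(fl/fl), than in Pax5(fl/+), beside 40.7% and 39.9% of all genes called. Between the progenitors 0 were called, beside 1.97%.

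Among the lymphoid stages the PAR bZIP gene Hlf, a relative of Dbp, had 208 to 256 TPM in LMPP and 2.31 to 2.85 TPM in DN1 (log2 difference -6.48, adjusted p = 1.60e-07). Npas2, which can take the place of Clock as partner of Arntl, was at 1.81 to 2.30 TPM in LMPP, 0.0373 to 0.143 TPM in DN1, 0.0884 to 0.656 TPM in DN2b and 9.12 to 10.2 TPM in DN3a (log2 difference from DN2b 4.61, adjusted p = 5.54e-06). In DN3b it was at 1.16 to 1.82 TPM. Npas2 and Clock thus had their highest levels at the same stage. Over the 23 genes tested, 1 was higher and 6 lower from LMPP to DN1, 3 higher and 8 lower from DN1 to DN2a, 1 higher and 0 lower from DN2a to DN2b, 10 higher and 3 lower from DN2b to DN3a, 5 higher and 8 lower from DN3a to DN3b, and 0 higher and 6 lower in Rag2(-/-) DN3a. The shares of all genes called in these 6 comparisons were, in the same order, 18.6%, 33.7%, 18.2%, 45.8%, 53.4% and 26.4%.

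Within genotypes no relation between Arntl and another clock gene passed. Deviations from the genotype mean were correlated over 25 samples for 9 pairs, and the strongest was with Cry2 (Pearson r = -0.54, permutation p = 0.0197, adjusted p = 0.177; Spearman rho = -0.50, p = 0.027, adjusted p = 0.243). Without the 2 samples farthest from the median of Arntl, r was -0.43. As a description over the same 25 samples, which share genotypes, the genes most like Arntl in level were Cdc25b (r = 0.981), a phosphatase that activates cyclin-dependent kinases, Dck (0.981), the deoxycytidine kinase, and Mmrn1 (0.979). The pattern of Per1 was most like those of Zfp652 (0.917), Furin (0.913) and Kcna3 (0.906), and that of Per2 like those of Slc16a6 (0.880), Tfap4 (0.863) and 2310015A10Rik (0.861). Nr1d2 was nearest to Snx5 (0.945), Agpat5 (0.933) and Bcap29 (0.920), and Dbp to Usp36 (0.907), Phlda3 (0.889) and Slc16a13 (0.880). Cry1 was nearest to Nom1 (0.801), Gtf2e1 (0.799) and Champ1 (0.799), Cry2 to Gm5914 (0.820), Nanos3 (0.817) and Plppr3 (0.812), and Nr1d1, with the lowest values of the 8 genes compared, to Socs3 (0.650), Csf1 (0.637) and AB124611 (0.632). Clock and Per3 had means below 5 TPM and were left out.

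Some members overlap other genes on the opposite strand, and the strand used in counting is not stated. In the GENCODE annotation of GRCm38, exons of Nr1d1 share 263 bases with Thra, those of Dbp 539 bases with Sphk2 and those of Cry2 295 bases with D930015M05Rik. Reads from these stretches cannot be told apart. Thra was at 64.0 to 94.7 TPM and Sphk2 at 36.4 to 56.6 TPM in Pax5(+/+) cells, both above the levels of Nr1d1 and Dbp, so that the values of these 2 members are uncertain to that extent.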

How the data were processed

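The authors trimmed reads to 50 nucleotides, aligned them to mm10 with STAR 2.4.2a, counted them over RefSeq genes and deposited TPM values, with raw counts for 2 of the 31 samples. In 8 files without gene names, rows were taken in the order of the 23 files that have them. For the 17 lymphoid samples the authors aligned to mm9 with TopHat 1.4.1 and deposited 2 TPM-like score values per gene. Their mean was used, and an entry of exactly 1 was read as 0. Depth was recovered from the TPM and the gene lengths that the deposited counts imply (100% of 4207 to 6885 values whole within 0.01).

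Differences were tested with limma 3.58.1 in R 4.3.3 on log2(TPM + 0.1), with genes above 1 TPM in at least 1 sample, a trended variance, Benjamini-Hochberg adjustment over all genes tested and calls at an adjusted p under 0.05; fold changes are on that scale and understate those of low genes. Read length (50 or 100) was a term in the C-terminal models. Pax5(DCRD1/DCRD1) and the Pax5-deficient progenitors of these models were read with 50 nucleotides and the other mutants with 100. The term therefore rests on Pax5(+/+), which had both. The central-domain model used the 8 samples of 100 nucleotides. Alternatives were pseudocounts of 1 and 0.01, no filter, median-ratio scaling, an untrended variance, other models, edgeR 4.0.16 and DESeq2 1.42.0 on the recovered reads, a replicate block and leaving out each sample. On simulated data for the Prd experiment (12493 genes), limma recovered 64% of 2-fold and 98% of 4-fold changes.

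The 10 members are named, and of the accessory clock list the 3 largest called differences of each model; of the immediate-early and glucocorticoid-induced lists the 2 largest changes are named where Per1 was called. Per1 belongs to the glucocorticoid-induced list and is part of its counts in every comparison. Dusp1 is in both lists, so their counts are not independent. Likeness took the 3 genes of highest Pearson r among those averaging at least 5 TPM. Fos and Jun in DN3a, and the remark on Egr1 and Nr4a1 beside them, were added after their values were seen. The members and lists were chosen with earlier results of these data known. Ciart has no row in the lymphoid data and Cyr61 none in the others. Among the 3 samples of DN1, DN2a and DN2b, 2 carry the same replicate number and were counted separately. No source used here says that replicates came from separate mice, so p-values measure the spread between these samples. Chromatin data were not analysed here.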

Additional observations from a re-analysis of the deposited data

How the results depend on the processing

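Of 50 called differences, 29 were called under every alternative (14 to 27 per comparison), among them all 8 of Arntl between Pax5 genotypes. The homozygous C-terminal comparisons gave 4 calls, and 2 to 5 when 1 sample was left out, with 2 without Pax5(+/+) replicate 3 or Pax5(DCRD1,2/DCRD1,2) replicate 2. The 12 calls of the Prd experiment became 6 to 16, with 7 and 6 without Pax5(fl/+) replicates 1 and 2. The 8 hemizygous and Pax5-deficient calls became 6 to 9 and the 26 lymphoid calls 22 to 32, where leaving out a sample can leave an arm of 1, taken to vary like the other groups. The central-domain calls stayed at 0.

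Samples with the same replicate number did not deviate together (correlations of -0.276 to 0.172 over 56 pairs of C-terminal samples). Between groups of 2 samples, replicates 1 and 2 give the same correlation, so many of these pairs repeat another. Such a check cannot show whether samples share a batch. With a replicate block in place of read length the homozygous comparisons gave 7 calls, 0 of them higher. The Per2 and Per3 calls in the CRD1,2 genotypes were then lost (adjusted p = 0.222 to 0.381). Dbp (0.08) and Per3 (0.0624) in Pax5-deficient progenitors were lost too. Clock in Pax5(DCRD1,2/DCRD1,2) turned from 0.13 to -0.74 on the log2 scale (adjusted p = 0.0289). Replicate numbers above 2 occur only in Pax5(+/+), so under this block each mutant was set against Pax5(+/+) replicates 1 and 2 alone. Those 2 samples had the shorter reads and the CRD1,2 mutants the longer. For the CRD1,2 genotypes the block therefore cannot separate replicate from read length. The block gave 6 hemizygous, 11 Prd calls, with Dbp lost in Pax5(fl/fl) (0.077), and 25 lymphoid calls, with Per2 lost in DN2a (0.0669). No paired analysis was possible because wild type and mutants share no replicate number in the central-domain comparisons. The fewest reads behind a value of a member in the pro-B and progenitor data were 111, for Nr1d1 in 1 sample, and each genotype but wild type has 2 samples.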
